A study of Saccharomyces cerevisiae with 8 samples.

Results

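Budding yeast (Saccharomyces cerevisiae) changes the transcription of a large share of its genes within minutes of a rise in temperature. Newly made RNA was compared here between cells shifted to 37 °C for 12 min and cells left at steady state in growth at 30 °C, in both cases with the Mediator kinase Srb10 (Cdk8) uninhibited. These are 4 of the 8 libraries of the study, 2 of heat shock and 2 of steady state, taken as the DMSO columns of a table of raw read counts. All 4928 transcripts of that table were considered, and 4901 had enough reads to be tested. Newly made RNA was captured by 4tU-seq, in which cells take up 4-thiouridine (4tU, 5 mM for 5 min) and the RNA that carries it is purified and sequenced, here from 100 ng RNA a library.

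All libraries come from the same haploid strain of mating type alpha. Its genotype is Mat [alpha], Δade2::hisG, his3Δ200, leu2Δ0, lys2Δ0, met15Δ0, trp1Δ63, ura3Δ0 and srb10Δ::KanMX. The kinase comes from the plasmid pSH599, an ARS CEN TRP1 plasmid with srb10as-1 (Y236G), a form with an altered ATP pocket that the compound 1-NA-PP1 can block. Heat shock and steady state cells alike thus lack chromosomal SRB10 and carry the analogue-sensitive form, and DMSO cells received the solvent for 12 min in place of 6 µM 1-NA-PP1. No library of a strain with wild-type SRB10 was analysed here, so "active" means not inhibited. Cultures grew from an OD600 of 0.1 to 0.8 in YPD-Trp. The labels do not say that the replicates were separate cultures, so p-values measure the spread between libraries, which may be technical.

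Several regulators are known to act in the yeast heat response. Hsf1 binds heat shock elements (HSE) before chaperone genes, Msn2 and Msn4 bind stress response elements (STRE) before general stress genes, and Rpn4 binds the proteasome-associated control element (PACE). Genes for making ribosomes often carry the elements PAC and RRPE and are known to be turned down under stress, and genes of the G1 to S transition often carry MluI cell cycle boxes (MCB). Srb10 belongs, with its cyclin Srb11 (SSN8 here), to the kinase module of Mediator, the complex that links DNA-bound regulators to RNA polymerase II.

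Promoter windows of 5 genes show these elements beside the transcripts described below. Each is the 300 bases before the transcript start on the transcript's own strand, 5′ to 3′, from the RefSeq genome of the build R64, which is sacCer3. Capitals mark the matches on either strand. An HSE is 3 alternating units GAA and TTC with 2 bases between units, STRE is AGGGG, PACE is GGTGGCAAA, PAC is GATGAG, RRPE is AAAAATTT and MCB is ACGCGT. HSP104 (chrXII:88267-88566, plus strand) holds 2 overlapping HSE matches and 3 STREs, and PAI3 (chrXIII:610400-610699, minus strand) holds 3 STREs. RPN1 (chrVIII:164765-165064, minus strand) holds 1 PACE and 1 PAC, UTP6 (chrIV:1358944-1359243, minus strand) holds 1 RRPE and 1 PAC, and MCD1 (chrIV:444302-444601, plus strand) holds 2 MCBs and 1 RRPE.
HSP104: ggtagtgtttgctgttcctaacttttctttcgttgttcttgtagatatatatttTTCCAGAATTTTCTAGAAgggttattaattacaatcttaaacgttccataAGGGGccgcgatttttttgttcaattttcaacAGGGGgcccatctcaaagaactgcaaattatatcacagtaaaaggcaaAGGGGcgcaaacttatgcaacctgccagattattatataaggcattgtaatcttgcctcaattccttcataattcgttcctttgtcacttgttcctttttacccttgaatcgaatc
PAI3: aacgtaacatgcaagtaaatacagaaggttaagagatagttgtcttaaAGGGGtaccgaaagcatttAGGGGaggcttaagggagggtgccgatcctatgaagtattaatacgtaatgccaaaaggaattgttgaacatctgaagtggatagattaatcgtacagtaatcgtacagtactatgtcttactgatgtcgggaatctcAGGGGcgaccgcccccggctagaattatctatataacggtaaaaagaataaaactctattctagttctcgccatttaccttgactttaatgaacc
RPN1: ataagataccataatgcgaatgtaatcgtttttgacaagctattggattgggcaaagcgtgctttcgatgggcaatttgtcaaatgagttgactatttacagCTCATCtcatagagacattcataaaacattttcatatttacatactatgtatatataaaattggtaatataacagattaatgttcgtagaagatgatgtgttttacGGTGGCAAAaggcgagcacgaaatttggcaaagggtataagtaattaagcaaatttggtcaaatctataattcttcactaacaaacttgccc
UTP6: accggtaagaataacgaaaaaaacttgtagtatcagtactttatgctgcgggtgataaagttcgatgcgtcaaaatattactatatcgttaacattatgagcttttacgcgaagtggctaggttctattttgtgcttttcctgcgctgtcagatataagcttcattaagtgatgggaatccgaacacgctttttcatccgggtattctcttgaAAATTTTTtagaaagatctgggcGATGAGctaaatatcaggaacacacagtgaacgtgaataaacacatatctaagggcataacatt
MCD1: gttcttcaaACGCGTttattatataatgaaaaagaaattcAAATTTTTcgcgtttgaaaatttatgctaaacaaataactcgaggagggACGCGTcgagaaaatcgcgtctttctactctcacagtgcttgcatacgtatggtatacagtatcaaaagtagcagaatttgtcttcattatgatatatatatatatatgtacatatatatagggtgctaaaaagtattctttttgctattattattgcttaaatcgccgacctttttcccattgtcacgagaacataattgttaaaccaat

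The deleted kinase gene was read first, as a check of the strain. Levels are given as CPM, counts per 1000000 reads of the library after TMM scaling. SSN3, the gene of Srb10, gave 2291 and 2083 CPM in the heat shock libraries, against 2440 and 2436 CPM in the steady state libraries. Its log2 change of -0.16 (SE 0.09) did not pass the test (edgeR quasi-likelihood test, adjusted p = 0.172), although it was called at -0.47 with the authors' factors described below. RNA of the kinase was abundant in all 4 libraries, at 1083 RPKM after heat shock and 1208 RPKM at steady state (CPM per kilobase of transcript, the level per length). The cyclin gene SSN8 gave 115 and 111 CPM after heat shock and 103 and 103 CPM at steady state (log2 change 0.14, adjusted p = 0.196). TRP1, carried by the plasmid, gave 126 and 102 CPM after heat shock and 71.2 and 69.9 CPM at steady state, and rose (log2 change 0.69, SE 0.14, adjusted p = 0.00353). ADE2, LEU2, MET17 (the MET15 of the genotype) and URA3 had 0 counts in each library, which allows up to 0.204 CPM in the shallowest one, for counting error only.

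Depth differed between the groups. The heat shock libraries held 17743527 and 14680275 counted reads and the steady state libraries 64682858 and 60372371. Replicates correlated across transcripts with Pearson's r of 0.9926 for heat shock and 0.9985 for steady state, on log2 CPM; transcripts are not independent replicates. With every library thinned to the depth of the shallowest, 1435 transcripts were called higher and 1385 lower, close to the counts given below.

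Heat shock changed newly made RNA of a large share of the tested transcripts by a measurable amount, but by a small amount for most of them. Of the 4901 transcripts tested, 2866 (58.5%) were called at an adjusted p under 0.05, 1450 of them higher (29.6%) and 1416 lower (28.9%). These shares are the background for the counts of each list below. The median log2 change of all tested transcripts was -0.01, with a 5th percentile of -0.99 and a 95th percentile of 1.06. A log2 change of 1 or more was reached by 259 called higher (5.28%) and by 237 called lower (4.84%). The libraries of the groups did not overlap for 4111 transcripts (83.9%), so a lack of overlap is by itself no mark of a member described below. An exact permutation test with 2 libraries against 2 cannot give a two-sided p under 0.33, so each call rests on the spread estimated across all transcripts and all 8 libraries.

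The scale sets where 0 lies. With the factors that the authors deposited, in a fit of the DMSO libraries alone, the median of all transcripts was -0.32, and 425 transcripts were called higher and 2053 lower. The DMSO libraries alone with TMM scaling had a median of -0.02, with 1511 higher and 1627 lower. With scaling by total counts the median was -0.21, with 873 higher and 2215 lower. The authors' deposited table listed 437 tested transcripts higher and 2059 lower, and its log2 changes lay 0.31 below those given here at the median, with r = 0.9998 across transcripts. Changes below are relative to the typical transcript of these libraries, and a called rise smaller than about 0.31 takes the other sign under the authors' factors. Several larger rises kept their sign but not their call under those factors: HSP104, SSA1, SSE1, APJ1, YDJ1, HSC82, STI1, CPR6, CDC37, SGT1, BTN2, KAR2, RPT2, RPT5, RPN4, RSP5, ATG1, HSF1, SED1, PMA1, RPB2, ARO80, GND1 and TRP1. The factors also do not move both heat shock libraries alike. Relative to the first steady state library, the TMM size over the deposited factor was 0.739 for the first heat shock library and 0.905 for the second. The part of this in the lost calls was not tested.

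The 15 largest rises included genes of stress, carbon metabolism and the cell wall, beside genes of other or unknown roles. PAI3, which encodes an inhibitor of the vacuolar protease A, gave 117 and 192 CPM after heat shock, against 6.15 and 5.71 CPM at steady state. Its log2 change of 4.70 (SE 0.34, adjusted p = 1.77e-05) is the largest above a mean log2 CPM of 3. Its heat shock libraries differed from each other more than its steady state libraries did. A lack of overlap between the groups was part of the rule that chose these 15 genes. HSP26, a small heat shock protein that holds unfolded proteins, gave 401 and 403 CPM after heat shock and 36.1 and 27.1 CPM at steady state (log2 change 3.67, SE 0.29). GND2, a minor 6-phosphogluconate dehydrogenase of the pentose phosphate pathway, gave 210 and 183 CPM after heat shock and 15.3 and 13.3 CPM at steady state (log2 change 3.78). GRE1, a hydrophilin of osmotic and dry stress, gave 56.4 and 50.8 CPM after heat shock and 4.14 and 3.85 CPM at steady state (log2 change 3.74).

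Among the other large rises, PDC6, a minor pyruvate decarboxylase, was nearly silent in growth, with 15 and 17.8 CPM after heat shock and 0.941 and 1.20 CPM at steady state (log2 change 3.94, SE 0.22). CTA1, the peroxisomal catalase, gave 116 and 109 CPM after heat shock, against 10.4 and 10.7 CPM at steady state (log2 change 3.42). YDL218W, a protein of unknown function, gave 138 and 150 CPM after heat shock and 11.4 and 11.1 CPM at steady state, and had the smallest adjusted p together with ARO10 (2.85e-07). DSE4, a daughter cell wall glucanase, stands out in amount, with 4828 and 4776 CPM after heat shock, against 785 and 668 CPM at steady state (log2 change 2.72, SE 0.10). The remaining large rises were SPS100 (3.26), ARO10 (2.90), NDE2 (2.76), SDH9 (2.68), POT1 (2.64), HAB1 (2.59) and FMP16 (2.54), all given as log2 changes.

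The 15 largest falls included genes of the cell cycle, zinc uptake, pyrimidine synthesis, glycogen synthesis and mating, beside genes of other roles. CLB6, an S phase cyclin, gave 2.70 and 4.84 CPM after heat shock, against 46.5 and 41.0 CPM at steady state (log2 change -3.56, SE 0.21, adjusted p = 6.56e-06). URA1, which makes orotate for pyrimidines, gave 72.3 and 75.3 CPM after heat shock and 507 and 543 CPM at steady state (log2 change -2.83). ZRT1, the high-affinity zinc transporter, gave 53.1 and 59.9 CPM after heat shock and 463 and 327 CPM at steady state (log2 change -2.81). In all 15 the heat shock libraries lay under both steady state libraries, by the rule that chose them. RNR1, the large subunit of ribonucleotide reductase, gave 66.2 and 65.6 CPM after heat shock and 431 and 376 CPM at steady state (log2 change -2.61). MF(ALPHA)1, the main gene of the alpha pheromone, gave 537 and 479 CPM after heat shock, against 2681 and 3082 CPM at steady state (log2 change -2.50, SE 0.11). INA1 (-3.34), FEX1 (-2.93), GSY1 (-2.91), POL30 (-2.70), ZPS1 (-2.57), YKR075C (-2.53), ACM1 (-2.52), MTH1 (-2.48), MCD1 (-2.47) and CIN2 (-2.43) complete the 15 largest falls.

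**Figure D1:**
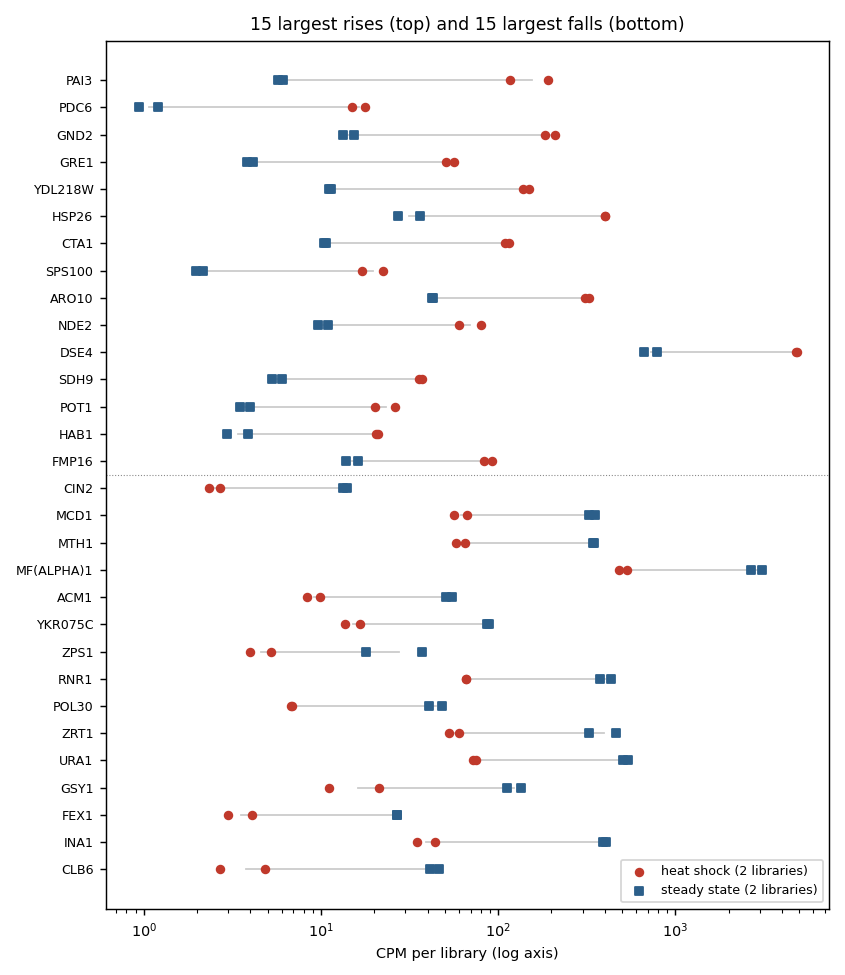
CPM of the 15 transcripts with the largest rises and the 15 with the largest falls, on a log axis, with heat shock libraries as red circles, steady state libraries as blue squares and lines joining the group means. No heat shock point reaches a steady state point for any of the 30 transcripts, by the rule that chose them.

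Core targets of Hsf1, among them cytosolic and mitochondrial chaperones, were already high at steady state, and most rose by modest amounts. Of the 23 targets, 16 were called higher and 2 lower, with a median log2 change of 0.36, against -0.01 for all transcripts. Under the authors' factors 5 were higher and 2 lower and the median was 0.06. Together they held 6.23% and 5.58% of counted reads after heat shock, against 4.80% and 4.66% at steady state. Per length, their median was 1231 RPKM after heat shock and 1017 RPKM at steady state, where the median of all tested transcripts was 70.0 RPKM after heat shock and 74.5 RPKM at steady state. HSP104, the disaggregase whose promoter is shown above, gave 6221 and 5097 CPM after heat shock and 3791 and 3469 CPM at steady state (log2 change 0.64, SE 0.11, adjusted p = 0.00148).

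The genes of the cytosolic Hsp70 family changed by different amounts, with 8 of 11 called higher, 1 lower and a median of 0.38 (0.07 under the authors' factors). SSA4 gave 2865 and 2208 CPM after heat shock, against 948 and 881 CPM at steady state (log2 change 1.47, SE 0.15). SSA3 gave 902 and 790 CPM after heat shock, against 162 and 153 CPM at steady state (log2 change 2.43, SE 0.11). These are the stress-inducible forms. The forms made in growth were SSA1, with a log2 change of 0.51, and SSA2, with 0.09 (adjusted p = 0.505); both share near-identical stretches, so reads could be split between them. The nucleotide exchange factors SSE2 (1.09) and SSE1 (0.63) rose, as did the J-proteins APJ1 (0.38), YDJ1 (0.34) and SIS1 (0.30), the last with -0.02 under the authors' factors. SNL1, a membrane-bound exchange factor, fell by 1.02 on the log2 scale, at 9.02 and 7.41 CPM after heat shock and 15.4 and 18 CPM at steady state.

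Hsp90 and its helpers had 8 of 12 higher, 1 lower and a median of 0.43; the authors' factors gave 3 higher, 1 lower and a median of 0.13. HSP82 gave 10532 and 8385 CPM after heat shock, against 5304 and 5112 CPM at steady state (log2 change 0.86, SE 0.12). HSC82, the form known for its high level in growth, changed by 0.36. In these steady state libraries it lay below HSP82, at 1737 RPKM against 2291 RPKM. The cochaperones SBA1 (0.95), AHA1 (0.87), CPR6 (0.63), SGT1 (0.51), CDC37 (0.50) and STI1 (0.36) rose, and the phosphatase PPT1 fell (-0.67). CNS1 (0.30), HCH1 (0.11) and CPR7 (0.00) did not pass the test, though CNS1 was called in the fit of the DMSO libraries alone (0.29). Of the sorting factors that send misfolded proteins to deposits, BTN2 rose by 0.37 and CUR1 fell by 0.49, and the small heat shock protein HSP42 did not pass (0.13, adjusted p = 0.264). Some of these small changes lost their call when 1 library was left out. YDJ1 was not called without the first heat shock library (0.29), the second (0.26) or the second steady state library (0.31). SIS1 was not called without the first heat shock library (0.14), the first steady state library (0.32) or the second (0.28). HSC82 lost its call without the second heat shock library (0.26) or the second steady state library (0.33), CDC37 without the second heat shock library (0.33), and BTN2 without the first heat shock library (0.25) or the second steady state library (0.35). PPT1 lost its call without the first heat shock library (-0.55), the first steady state library (-0.71) or the second (-0.64). BTN2 was the fourth highest transcript per length after heat shock, at 3909 RPKM, against 3025 RPKM at steady state.

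In the mitochondrion, the disaggregase HSP78 gave 3477 and 2842 CPM after heat shock and 1366 and 1296 CPM at steady state (log2 change 1.25, SE 0.11). HSP60, the chaperonin, gave 3918 and 3945 CPM after heat shock, against 1879 and 1864 CPM at steady state (log2 change 1.07), while its partner HSP10 did not pass (0.03). The whole group of 8 had 4 higher and 1 lower and a median of 0.21; the authors' factors gave 2 higher, 1 lower and a median of -0.10. In the endoplasmic reticulum 4 of 10 were higher, among them the Hsp70 KAR2 (0.46; not called without the first heat shock library, at 0.24), and 2 were lower, with a median of 0.07; with the authors' factors none was higher, 2 were lower and the median was -0.25. Over all tested transcripts 29.6% were called higher and 28.9% lower. No ribosome-associated chaperone rose, and 3 of 7 fell, EGD1 (-0.34), EGD2 (-0.50) and BTT1 (-0.77). With the authors' factors 5 fell. EGD1 was not called without the second heat shock library (-0.37), the first steady state library (-0.37) or the second (-0.32), nor EGD2 without the last of these (-0.37).

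Many protein breakdown genes rose too. Of 32 proteasome genes, 23 were higher and none lower, with a median of 0.39; under the authors' factors 2 were higher and none lower and the median was 0.08. RPN1, a scaffold subunit of the regulatory particle, gave 1569 and 1251 CPM after heat shock, against 678 and 663 CPM at steady state (log2 change 1.07, SE 0.12). RPN2 rose by 1.04, RPT2 by 0.72 and RPT5 by 0.61, and RPN4, the regulator itself, by 0.47. Of 12 ubiquitin genes, 9 were higher and 1 lower (median 0.58), against 5 and 1 with the authors' factors. UBA1, the ubiquitin-activating enzyme, gave 1468 and 1497 CPM after heat shock and 616 and 607 CPM at steady state (log2 change 1.28, SE 0.08). The polyubiquitin gene UBI4 (1.32), the unfoldase CDC48 (1.13) and the ligases HUL5 (1.08), UFD4 (0.94) and RSP5 (0.57) rose, and SAN1, a nuclear ligase, fell (-0.32; not called without the first steady state library, at -0.30). Vacuolar proteases and autophagy genes had 11 of 14 higher (6 with the authors' factors) and none lower, with PRC1 (1.44), PRB1 (1.24), PEP4 (1.02), ATG9 (0.88) and ATG1 (0.73).

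General stress genes rose by large amounts. Of 20 tested, 18 were higher and none lower, 16 of them by 1 or more, with a median log2 change of 1.34 (1.02 under the authors' factors). The membrane-stabilising HSP12 gave 854 and 607 CPM after heat shock, against 214 and 202 CPM at steady state (log2 change 1.81, SE 0.25). The cytosolic catalase CTT1 gave 665 and 565 CPM after heat shock, against 161 and 134 CPM at steady state (log2 change 2.06, SE 0.24). The aldehyde dehydrogenase ALD3 (2.47), the transaldolase-like NQM1 (2.47), the reticulon RTN2 (1.89), the regulator USV1 (1.83) and the cell wall protein SPI1 (1.59) rose too. The heat shock libraries differed in these genes, with HSP12 at 854 and 607 CPM; the group's median was 1.14 without the first heat shock library and 1.41 without the second.

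Genes of trehalose, a sugar that protects proteins and membranes, rose in 7 of 8 cases with a median of 0.90 (4 cases and 0.59 with the authors' factors). TSL1, a subunit of the synthase complex, gave 6489 and 4824 CPM after heat shock, against 2002 and 1597 CPM at steady state (log2 change 1.65, SE 0.19). The synthase TPS1 (1.22) and the trehalases NTH2 (1.38) and NTH1 (1.09) rose alike, so genes of synthesis and of breakdown rose together. Of 7 glycogen genes, 2 were higher and 2 lower, shares near those of all transcripts, and 1 was higher and 3 lower with the authors' factors. The glycogen synthase GSY2 gave 1349 and 1065 CPM after heat shock and 622 and 518 CPM at steady state (log2 change 1.08, SE 0.14). Its paralog GSY1 gave 21.4 and 11.1 CPM after heat shock and 135 and 112 CPM at steady state (log2 change -2.91, SE 0.26), and its change was -3.54 without the first heat shock library. No library of either group overlapped the other group for either gene, as for 83.9% of all tested transcripts. For GSY1 this was part of the rule that chose the largest falls.

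Antioxidant genes had 16 of 26 higher and 2 lower (median 0.35; 0.04 under the authors' factors, with 8 higher and 5 lower). Beside both catalases, the peroxiredoxin TSA2 (2.48), the mitochondrial cytochrome c peroxidase CCP1 (1.32) and the glutathione transferase GTT1 (1.17) rose, while the thioredoxins TRX2 (-0.49) and TRX1 (-0.79) fell. Genes of glycerol and the osmotic pathway had 2 of 12 higher (1 with the authors' factors) and 2 lower, and GPD1, the glycerol 3-phosphate dehydrogenase of osmotic stress, did not pass (-0.11). Of 13 stress regulators, 7 were higher and 2 lower, but 1 was higher and 4 lower with the authors' factors. YAP1, of the oxidative stress response, gave 1117 and 1097 CPM after heat shock and 589 and 578 CPM at steady state (log2 change 0.92). HSF1 itself rose by 0.59, and HAP4 (-0.75) and GCN4 (-0.63) fell, GCN4 with no call without the first heat shock library (-0.57) or the second steady state library (-0.55). The cyclic AMP pathway, which restrains Msn2 and Msn4, had 6 of 10 genes higher and 2 lower (2 and 2 with the authors' factors). Its phosphodiesterase PDE1 gave 657 and 703 CPM after heat shock, against 202 and 192 CPM at steady state (log2 change 1.79, SE 0.08). The receptor GPR1 rose (0.82) and RAS1 fell (-1.14).

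Cell wall genes had 16 of 21 higher and 2 lower, with a median of 0.53 (0.20 under the authors' factors, with 8 higher and 3 lower). PST1, a wall protein known to follow the integrity pathway, gave 3368 and 3075 CPM after heat shock, against 859 and 813 CPM at steady state (log2 change 1.95, SE 0.11). MTL1, a wall stress sensor, gave 1236 and 1518 CPM after heat shock and 417 and 423 CPM at steady state (log2 change 1.71). The wall proteins PIR3 (1.49), PIR1 (1.35) and HSP150 (0.87) and the kinase SLT2 (0.90) rose, and CIS3, of the same family as PIR1, fell (-1.18). Wall and membrane genes were also among the highest levels per length: SED1, a wall protein, had 7013 RPKM after heat shock and 4931 RPKM at steady state, and PMA1, the plasma membrane proton pump, had 3346 RPKM after heat shock and 2485 RPKM at steady state.

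The study deposited its own list of heat shock response genes, which may have been chosen on these samples and is therefore no independent evidence of a rise. Of its 22 tested genes, 17 were higher and none lower, with a median of 1.24; the authors' factors gave 13 higher and 2 lower. All 13 of its genes named as induced were higher by 1 or more, with a median of 1.59; BDH2, a butanediol dehydrogenase relative, gave 475 and 385 CPM after heat shock and 114 and 94.3 CPM at steady state (log2 change 2.05).

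Ribosomal protein genes fell as a group. Of 136 cytoplasmic ribosomal protein genes, 103 were lower and none higher, with a median log2 change of -0.69, and 19 fell by 1 or more. With the authors' factors 133 were lower and the median was -1.01. They held 0.708% and 0.717% of counted reads after heat shock and 1.22% and 1.33% at steady state. RPL30 gave 31.7 and 35.7 CPM after heat shock, against 85.6 and 91.5 CPM at steady state (log2 change -1.39, SE 0.12). RPS13 gave 86.2 and 87.4 CPM after heat shock, against 204 and 214 CPM at steady state (log2 change -1.27, SE 0.14). Many of these genes come in near-identical copies, among which reads could be split. Mitochondrial ribosomal protein genes had 22 of 52 lower and 2 higher, with a median of -0.26; the authors' factors gave 35 lower and none higher.

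Ribosome biogenesis factors had 42 of 89 lower and 1 higher, with a median of -0.47. The lower count was 80, with none higher and a median of -0.77, under the authors' factors, and 65 with total counts. NOP15 gave 30.8 and 38.4 CPM after heat shock, against 76.6 and 87.9 CPM at steady state (log2 change -1.25, SE 0.19). UTP6, a subunit of the small-subunit processome whose promoter is shown above, gave 60.3 and 71.9 CPM after heat shock, against 142 and 157 CPM at steady state (log2 change -1.18, SE 0.17). The heat shock libraries differed for the group, whose median was -0.39 without the first of them and -0.67 without the second. The genes of RNA polymerase I had 6 of 11 lower, those of polymerase III 7 of 14 (11 with the authors' factors) and those of polymerase II 7 of 10, with RPA12 (-1.13), RPC82 (-1.09) and RPB8 (-0.87) the lowest. RPB2 (0.36) rose. Core Mediator had 10 of 18 lower and 2 higher (14 lower and none higher with the authors' factors), with SOH1 (-0.65) the lowest. The regulators of ribosomal genes and the TOR pathway did not fall as a group, with 7 of 14 higher and 1 lower and a median of 0.21. With the authors' factors 2 were higher and 2 lower. The 1 called lower was RAP1, which binds ribosomal protein promoters. It gave 158 and 164 CPM after heat shock and 350 and 340 CPM at steady state (log2 change -1.10, SE 0.06). CRF1, a corepressor of those genes, rose (1.15).

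Transcript length moved with these results. In 5 equal bins of length, the median log2 change was -0.25, -0.16, 0.01, 0.07 and 0.18 from the shortest to the longest bin. Spearman's rho of length with change was 0.27 across the 4901 transcripts, as a description, since transcripts share libraries. It was 0.56 across the 53 polymerase and core Mediator genes. The median length was 940 bases for cytoplasmic ribosomal protein transcripts and 1626 bases for biogenesis factors, against 1435 bases for all tested transcripts. The part of length in the falls of short genes was not tested. In the libraries with 1-NA-PP1, which share none with these, the same bins had medians of -0.32, -0.17, 0.01, 0.09 and 0.22.

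**Figure D2:**
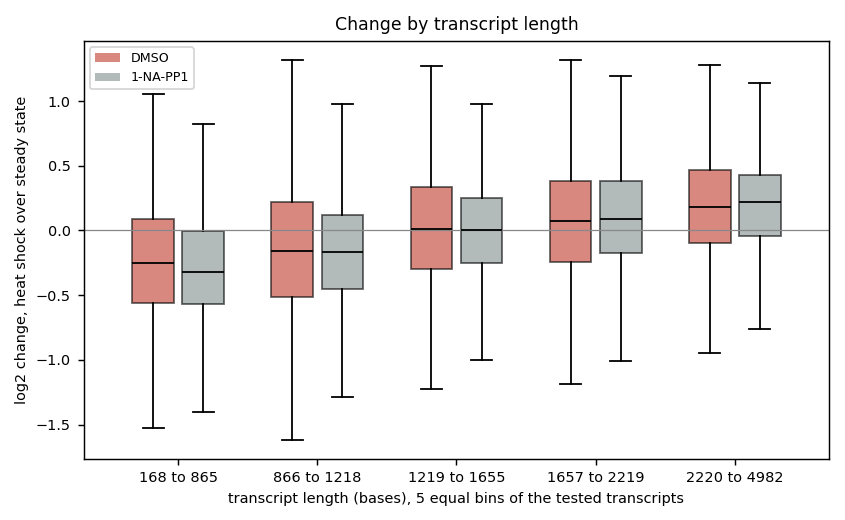
Log2 change of newly made RNA, heat shock over steady state, in 5 equal bins of transcript length in bases, for DMSO libraries (red) and 1-NA-PP1 libraries (grey). Lines are medians, boxes the middle 50% and whiskers the last values within 1.5 box heights; the DMSO median runs from -0.25 in the shortest bin to 0.18 in the longest.

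Cell cycle genes fell in both G1 to S and G2 to M groups. In bulk cultures, fewer cells in a phase and less RNA per cell cannot be told apart. Of 20 genes of G1 and S phase, 16 were lower and 1 higher, with a median of -1.33, and all 16 genes of G2 and M phase were lower, with a median of -1.24. MCD1, a cohesin subunit whose promoter is shown above, gave 56.2 and 66.8 CPM after heat shock, against 353 and 327 CPM at steady state (log2 change -2.47, SE 0.10). CLN2, a G1 cyclin, gave 155 and 200 CPM after heat shock and 495 and 449 CPM at steady state (log2 change -1.41). The S phase cyclin CLB5 (-1.74), the cyclin PCL1 (-1.73), the thymidylate synthase CDC21 (-1.65) and the flap nuclease RAD27 (-1.42) fell too.

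Of the mitotic genes, SWI5, a regulator of genes at the end of mitosis, gave 164 and 172 CPM after heat shock, against 604 and 571 CPM at steady state (log2 change -1.81, SE 0.07). CLB2, the main mitotic cyclin, gave 144 and 173 CPM after heat shock and 449 and 440 CPM at steady state (log2 change -1.49). CDC20 (-1.57), which activates the anaphase complex, and the polo kinase CDC5 (-1.37) fell. All 10 histone genes fell, with a median of -1.65 and a range of -2.14 for HTA2 to -0.43 for HHT2. HTB1, an H2B gene, gave 35.0 and 33.8 CPM after heat shock, against 104 and 115 CPM at steady state (log2 change -1.67, SE 0.09).

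In central metabolism, most glycolytic genes rose by small amounts. Of 19, 14 were higher and 1 lower, with a median of 0.50 (0.18 under the authors' factors, with 4 higher and 1 lower). TDH1, the glyceraldehyde phosphate dehydrogenase known for stress and slow growth, gave 315 and 264 CPM after heat shock, against 114 and 88.1 CPM at steady state (log2 change 1.52, SE 0.16), whereas the major form TDH3 did not pass (0.10, adjusted p = 0.289). HXK2, the main hexokinase in glucose, gave 176 and 135 CPM after heat shock, against 427 and 433 CPM at steady state (log2 change -1.46). Of 10 pentose phosphate genes, 7 were higher and 1 lower (3 and 2 with the authors' factors), and GND2 stood at 119 RPKM after heat shock and 8.69 RPKM at steady state, where the major form GND1 had 135 RPKM after heat shock and 94.1 RPKM at steady state.

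**Figure D3:**
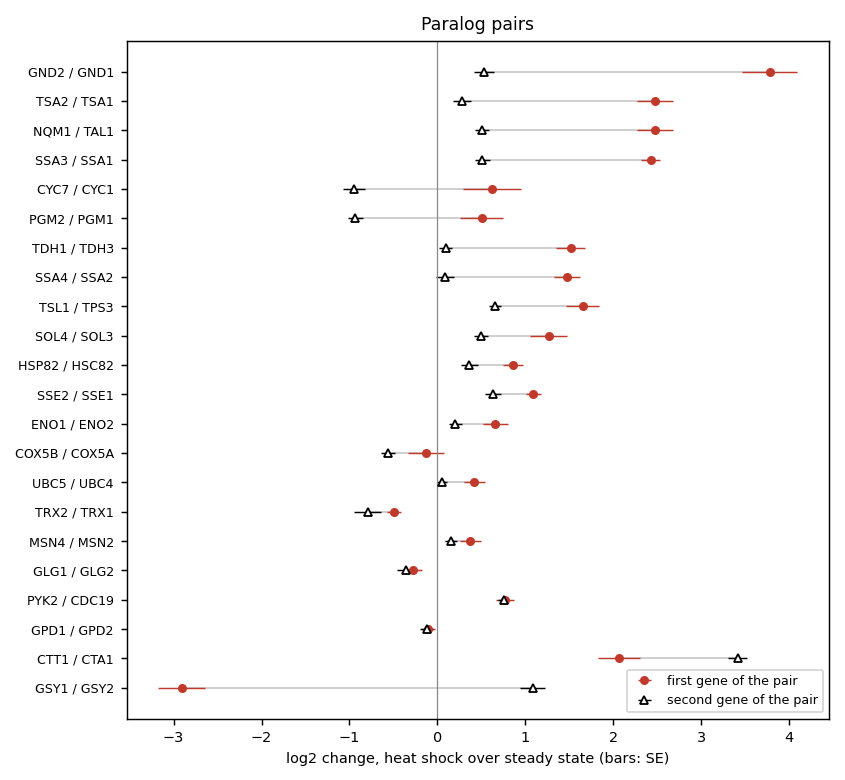
Log2 change, heat shock over steady state in DMSO cells, of the 22 paralog pairs with both genes tested, with the stress-linked or minor form as a red circle, its partner as an open triangle and bars of 1 SE. The circle lies to the right of the triangle in 20 pairs; GSY1 with GSY2 and CTT1 with CTA1 are the others.

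The pairs put known stress-linked or minor forms beside their partners, and were listed with earlier results known, so their direction is a description. The change of the first form was above that of the second in 20 of 22 pairs. Some pairs differed by less than their SE, such as GPD1 (-0.11) with GPD2 (-0.12) and PYK2 (0.77) with CDC19 (0.75). The first form was called higher in 15 and lower in 2, and the second higher in 12 and lower in 5. These counts are on the TMM scale. With the authors' factors the second forms SSA1, HSC82, SSE1, GND1 and TSA1 lost their call, and the first form COX5B was called lower (-0.46). On levels per length, SSA4 had 1231 RPKM after heat shock and 444 RPKM at steady state, and SSA2 had 1194 RPKM after heat shock and 1124 RPKM at steady state, so that the log2 ratio of SSA4 to SSA2 was 0.04 after heat shock and -1.34 at steady state. TSA2 had 564 RPKM after heat shock and 101 RPKM at steady state, below its partner TSA1 in both groups, at 1616 RPKM after heat shock and 1332 RPKM at steady state. For phosphoglucomutase, the minor form PGM1 fell (-0.93) and PGM2 did not pass (0.50, adjusted p = 0.106). COX5A (-0.57) and CYC1 (-0.95), the aerobic forms of their respiratory proteins, fell, and COX5B (-0.13) and CYC7 (0.62, adjusted p = 0.136) did not pass. In the fit of the DMSO libraries alone, PGM2 (0.50, adjusted p = 0.0135) and CYC7 (0.61, adjusted p = 0.00284) were called higher (edgeR quasi-likelihood test).

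Genes that glucose represses had 16 of 23 higher and 3 lower (15 and 6 with the authors' factors), with a median of 1.28, from low levels of 6.28 RPKM at steady state at the median, against 16.2 RPKM after heat shock. SFC1, a mitochondrial succinate and fumarate carrier, gave 15.3 and 12.3 CPM after heat shock and 2.23 and 2.09 CPM at steady state (log2 change 2.68, SE 0.17). ACS1 (1.77), the acetyl-CoA synthetase of growth on acetate, and the peroxisomal POX1 (2.07) and MLS1 (2.13) rose. Hexose transporters and glucose sensing genes had 6 of 10 lower and 2 higher, of which none was higher with the authors' factors. HXT3, a low-affinity transporter, gave 177 and 174 CPM after heat shock, against 661 and 683 CPM at steady state (log2 change -1.94, SE 0.08). HXT4 fell (-2.19), as did MTH1 (-2.48), a corepressor of HXT genes, and HXT1 did not pass (-0.20). HXT1 was called lower in the fit of the DMSO libraries alone (-0.21). Nuclear genes of respiration had 15 of 37 lower and 3 higher (23 and 1 with the authors' factors), with NDE2, an external NADH dehydrogenase, far above the rest at 2.76.

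Purine and pyrimidine genes had calls in both directions. Of 15 purine and one-carbon genes, 10 were higher and 2 lower, with a median of 0.48, but the authors' factors gave 4 higher, 4 lower and a median of 0.16. ADE17, of the last steps of purine synthesis, gave 278 and 278 CPM after heat shock, against 61.2 and 55.7 CPM at steady state (log2 change 2.25, SE 0.08). SHM2, the cytosolic serine hydroxymethyltransferase, gave 684 and 762 CPM after heat shock and 169 and 173 CPM at steady state (log2 change 2.08). IMD4, of guanine nucleotide synthesis, fell (-1.0). The strain carries a deletion in ADE2, a gene of this pathway, in all groups. Pyrimidine genes had 4 of 9 lower and 2 higher: URA4 (-1.07) and URA5 (-0.75) fell with URA1, and URA10 (1.59) and URA8 (0.90) rose. Among all transcripts 28.9% were lower and 29.6% higher.

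Amino acid genes were read in small sets. The 3 genes of aromatic amino acid breakdown rose. ARO10, a phenylpyruvate decarboxylase, gave 326 and 309 CPM after heat shock, against 42.3 and 42.9 CPM at steady state (log2 change 2.90, SE 0.07), ARO9, an aromatic transaminase, rose by 1.74 and their activator ARO80 by 0.37. Branched-chain genes had 5 of 11 lower and 2 higher (7 and 1 with the authors' factors), with the mitochondrial transaminase BAT1 (-1.32) down and the cytosolic BAT2 (1.36) up. MET6, the methionine synthase, gave 2564 and 2955 CPM after heat shock and 1366 and 1459 CPM at steady state (log2 change 0.97). Arginine (1 of 8 higher, 2 lower), histidine (none of 5 higher, 1 lower) and tRNA synthetase genes (1 of 18 higher, none lower) had few calls; with the authors' factors none of these was higher, and 3, 2 and 3 were lower. Of 13 permeases, 5 were higher and 1 lower, with a median of 0.13 (3 higher and 2 lower with the authors' factors). Among them PUT4 (1.87), DIP5 (1.68) and GAP1 (1.25) rose and TAT1 fell (-0.75).

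Most iron genes rose and most zinc genes fell. Of 22 iron genes, 16 were higher and none lower, with a median of 0.90 (0.57 under the authors' factors). FET3, the multicopper oxidase of iron uptake, gave 835 and 634 CPM after heat shock, against 311 and 307 CPM at steady state (log2 change 1.25, SE 0.13), and its permease partner FTR1 rose by 1.24. HMX1, a heme oxygenase, gave 67.6 and 60.0 CPM after heat shock and 14.9 and 14.8 CPM at steady state (log2 change 2.11). Of 9 zinc genes, 6 were lower and 1 higher, and 7 were lower and none higher with the authors' factors. ZAP1, the activator of the zinc regulon, gave 160 and 205 CPM after heat shock, against 494 and 375 CPM at steady state (log2 change -1.25, SE 0.18), beside the falls of ZRT1 and ZPS1. The change of ZPS1 was -1.95 without the first steady state library, against -2.57 with all libraries. Phosphate genes had 5 of 14 higher and none lower, where 29.6% of all transcripts were higher and 28.9% lower. With the authors' factors 2 phosphate genes were higher and 3 lower. Ergosterol genes had 13 of 24 higher, 2 lower and a median of 0.20, but 1 higher, 6 lower and a median of -0.11 with the authors' factors.

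The mating genes give a check of cell type. The alpha-specific genes were abundant and fell, with STE3, the a-factor receptor, at 206 and 223 CPM after heat shock and 540 and 537 CPM at steady state (log2 change -1.33) and SAG1 at -0.67. The a-specific genes MFA1, MFA2, AGA2 and ASG7 lay at or under 1.25 CPM in each library. BAR1, the protease that cuts alpha factor, gave 8.24 and 8.44 CPM after heat shock and 4.52 and 4.70 CPM at steady state (log2 change 0.85). STE2, an a-specific receptor gene, gave 22.5 and 26.5 CPM after heat shock and 9.83 and 10.9 CPM at steady state (log2 change 1.24); a transcript on the other strand overlaps it. Of these 6 a-specific genes 4 were called higher and none lower, with a median of 1.22, and 3 were higher with the authors' factors. AGA2 and ASG7, both at very low counts, lost their calls when counts were thinned. AGA2 also lost its call with the authors' factors and with total counts. The median of the list was 1.38 without the first heat shock library and 0.91 without the second. Haploid genes shared by both mating types had 3 of 11 higher and 4 lower (1 and 6 with the authors' factors). These are near the shares of all transcripts, 29.6% higher and 28.9% lower.

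Promoter motifs went with the direction of change to different degrees. Their medians and counts are on the TMM scale only, and the authors' log2 changes lay 0.31 lower at the median. The signs of small medians and the counts called thus depend on the scale, and each median is to be read beside -0.01 for all transcripts. An HSE was found before 1.14% of all transcripts in the table, and the 56 tested with it had a median change of 0.10, with 25 higher and 13 lower. Of the core Hsf1 targets 12 of 23 held an HSE. STRE was found before 23.0% of transcripts, and its holders had a median of 0.13, with 446 higher and 248 lower; for the 201 with 2 or more the median was 0.30, with 100 higher and 25 lower. In these 201 the first heat shock library lay above the second by 0.15 at the median (log2). STRE lay before 18 of 20 general stress genes and before 111 of the 259 transcripts that rose by 1 or more (42.9%).

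PACE, found before 1.48% of transcripts, had the median change furthest above 0 among the motifs searched, at 0.41 for its 73 holders, 49 of which were higher and 3 lower. It lay before 26 of 32 proteasome genes. PAC lay before 20.8% and RRPE before 17.3% of transcripts, and the 329 with both had a median of -0.32, with 33 higher and 132 lower; 80 of 89 biogenesis genes held PAC and 74 held RRPE. MCB, added after the falls of G1 and S phase genes were seen, lay before 3.94% of transcripts. Its 193 holders had a median of -0.41, with 31 higher and 113 lower, and it lay before 33 of the 237 transcripts that fell by 1 or more (13.9%). The site of Gcn4, TGACTC, lay before 8.48% of transcripts, whose median was 0.04. A match is only these letters in this window, and motifs can overlap or share promoters.

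**Figure D4:**
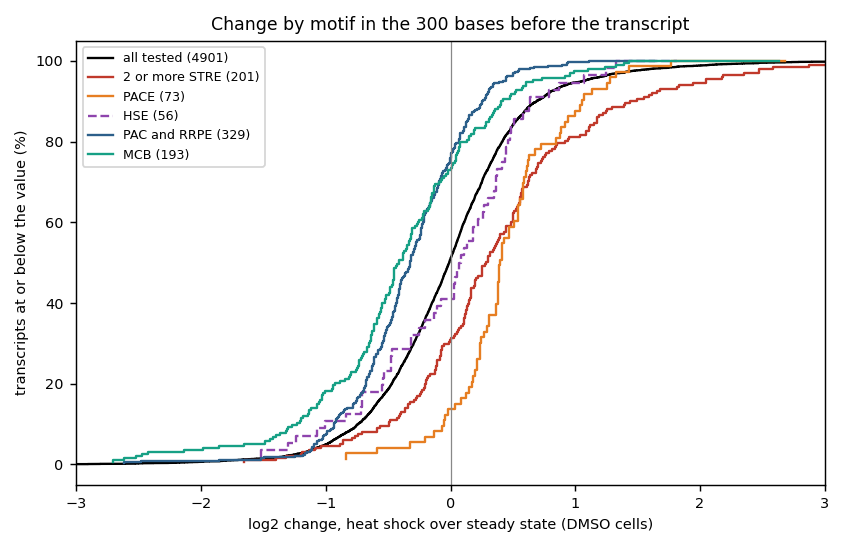
Share of transcripts (%) at or below each log2 change, heat shock over steady state in DMSO cells, for all tested transcripts (black) and for those with a motif in the 300 bases before the start. The curves for PACE and for 2 or more STREs lie to the right of the black one, with medians of 0.41 and 0.30, and those for MCB and for PAC with RRPE to the left, with medians of -0.41 and -0.32.

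The change was then set beside that of the 1-NA-PP1 libraries, in which the kinase is inhibited. The test of the difference called 1 of 4901 transcripts (0.0204%), ARO10, whose log2 change was 2.90 with DMSO and 1.97 with 1-NA-PP1 (difference 0.93, adjusted p = 0.0474). This call was lost with RLE scaling, total counts, no filter and limma voom, while DESeq2 kept it among 24 calls. At an unadjusted p under 0.05 the difference had 661 transcripts. Without a passed test, the list medians stand side by side as values only. For general stress genes the median was 1.34 with DMSO and 0.67 with 1-NA-PP1. For the proteasome it was 0.39 with DMSO and 0.15 with 1-NA-PP1, and for biogenesis factors it was -0.47 with DMSO and 0.13 with 1-NA-PP1. For ribosomal protein genes it was -0.69 with DMSO and -0.54 with 1-NA-PP1, and for core Hsf1 targets 0.36 with DMSO and 0.30 with 1-NA-PP1. G2 and M phase genes had -1.24 in both settings, and the iron regulon had 0.90 with DMSO and 0.95 with 1-NA-PP1.

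Position on the chromosome and counting set some limits. The 94 tested transcripts within 20 kb of a chromosome end had a median of 0.19, with 43.6% called higher and 22.3% lower. Transcripts elsewhere had a median of -0.01, with 29.3% higher and 29.0% lower. The median of 0.19 is smaller than the 0.31 by which the authors' log2 changes lay lower, so its sign depends on the scale. A counted transcript overlaps 1678 of the tested ones on the other strand, and the sources used here do not say whether counting used strand. Of the genes named with library values, GND2, RNR1, MF(ALPHA)1, RPN1, HSP60, SWI5, PST1, GSY2, SHM2, HMX1, YAP1 and STE2 are among these. Of the largest rises and falls given by log2 change alone, SDH9, POT1, INA1 and YKR075C are among them too. Reads of each such gene and of its neighbour may be mixed. Without all such transcripts 972 were called higher and 963 lower.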

How the data were processed

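For 8 libraries, the authors deposited a count table of reads per transcript, not normalised, with a transcript map on the build sacCer3. The submitters' processing notes name DESeq2, HTSeq, SAMtools, STAR 2.5.2b and cutadapt 1.9.1, in no stated order; the strand of counting is not given in the sources used here. The authors also deposited a normalised signal, the count divided by 1 factor per library, those factors as a ratio to the first library, and a table of log2 fold changes with an adjusted p-value. How the factors were set is not given.

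Groups came from the sample titles. Counts were tested with edgeR 4.0.16 (R 4.3.3, limma 3.58.1), with TMM scaling, filterByExpr, a model of 4 groups over all 8 libraries, the two-sided quasi-likelihood F test and Benjamini-Hochberg adjustment over all tested transcripts. A call needs an adjusted p under 0.05. The SE is the log2 change over the root of F. CPM and RPKM use TMM library sizes. Alternatives were RLE scaling, total counts, the deposited factors, no filter, DESeq2 1.42.0, limma voom, the DMSO libraries alone, no transcript with an antisense neighbour, thinned counts, a replicate block, and each DMSO library left out. On simulated counts of the same genes the test called 48 to 50 of 50 transcripts at each log2 change of 1 or more in size, and 11 of 4697 unchanged ones. The changes were planted only in well-counted transcripts, few of the total and equally up and down, with the spread taken from the same fit. Power for low transcripts and the place of 0 on the scale were thus not examined.

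Near-identical copies were found with BLAST 2.17.0 (95% identity over 50% of the transcript). Names came from the table's own name column, and 4842 of 4928 transcripts matched a RefSeq gene by systematic name. The experiment, the gene lists, the paralog pairs and the motifs were chosen with earlier results of these data known. The genes named are the 15 largest rises and falls among called transcripts above a mean log2 CPM of 3 with no overlap of libraries, members of each list (any where it has 12 or fewer, otherwise from the 8 called with the largest changes), the pairs, the 10 highest levels per length in each group and the genotype genes.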

Additional observations from a re-analysis of the deposited data

Results flagged for a closer look

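ARO10 is the transcript whose heat shock change differed between DMSO and 1-NA-PP1 cells in the test of the difference itself. Its log2 change was 2.90 with DMSO and 1.97 with 1-NA-PP1, a difference of 0.93 (edgeR quasi-likelihood test, adjusted p = 0.0474, the smallest of all tested transcripts). The call sits near the threshold: it was lost with RLE scaling, total counts, no filter, limma voom, thinned counts, the replicate block and with any 1 of the 4 DMSO libraries left out, with differences of 0.84 to 1.03, and kept with DESeq2 (adjusted p = 3.01e-13), without transcripts that have an antisense neighbour (0.035) and without the second 1-NA-PP1 steady state library (0.024). ARO9 differed by a similar 0.94 (adjusted p = 0.0802).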

How the results depend on the processing

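Scaling moved the counts most. With the authors' factors 425 transcripts were called higher and 2053 lower, 149 and 559 of them by 1 or more on the log2 scale, and the changes of SIS1 (-0.018) and TSA1 (-0.036) lay just under 0 with no call. That fit uses the DMSO libraries alone, which with TMM scaling gave 1511 higher and 1627 lower. With total counts 873 were higher and 2215 lower, 409 of the lower by 1 or more. Of 191 transcripts named in the text, 150 kept their direction and their side of the threshold in each of the 15 alternatives that tested them; 141 of the 191 were tested when transcripts with an antisense neighbour were left out, and 189 or more in each other alternative. The median of 16 of 60 lists changed sign with the authors' factors and of 11 with total counts. Leaving out a DMSO library in turn gave 989 to 1127 higher and 951 to 1492 lower. No effect shared by same-numbered DMSO libraries was seen (their deviations correlated at 0.026), which cannot tell whether they were prepared together. A replicate block gave 1404 higher and 1382 lower. The difference from 1-NA-PP1 had 24 calls with DESeq2, 2 without the second 1-NA-PP1 steady state library, an alternative added after the data were seen, and 0 with RLE scaling, total counts, no filter, limma voom, thinned counts, the replicate block or any DMSO library left out. For ARO10 it was 0.91 with RLE scaling, 0.89 with total counts, 0.87 with no filter, 0.93 with limma voom, 1.03 with thinned counts, 0.93 with the replicate block, and 0.84 to 0.94 with a DMSO library left out, none of them called; the cause was not tested. With the deposited factors, which scale the DMSO libraries only, no difference could be computed. Heat shock depth limits the low transcripts, and 2 libraries a group limit every call.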

Other observations

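The glycine cleavage genes, chosen after their values were seen, rose like their one-carbon partner SHM2. GCV2 gave 935 and 929 CPM after heat shock, against 174 and 163 CPM at steady state (log2 change 2.47, SE 0.07, edgeR adjusted p = 6.38e-07). GCV1 gave 232 and 194 CPM after heat shock and 50.1 and 48.0 CPM at steady state (log2 change 2.12). GCV3, which a transcript on the other strand overlaps, rose by 1.24.

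Histone H3 came mostly from HHT2 in these counts. It stood at 1826 RPKM after heat shock and 2464 RPKM at steady state, where HHT1 stood at 45.8 RPKM after heat shock and 149 RPKM at steady state, and a counted transcript overlaps HHT2 on the other strand. HSP30, a membrane heat shock protein in none of the lists, gave 450 and 324 CPM after heat shock, against 91.0 and 83.1 CPM at steady state (log2 change 2.15, adjusted p = 1.43e-05), and was also chosen after its values were seen.

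By level per length at steady state, the lowest of 5 equal bins of transcripts held 139 of the 259 that rose by 1 or more, 14.2% of that bin, and the other bins had between 1.94% and 4.49%. The steady state level is also the base of the change, so a low reading there favours a large rise by construction. The same bin held 54 transcripts that fell by 1 or more (5.50%), the highest such share of the 5 bins.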
